A study of Mus musculus with 9 samples.

Results

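The TGF-beta ligands Tgfb1, Tgfb2 and Tgfb3, their receptors Tgfbr1, Tgfbr2 and Tgfbr3, and the latent TGF-beta binding proteins Ltbp1, Ltbp2, Ltbp3 and Ltbp4 were followed across 3 sorted cell populations of the mouse mammary gland. In the raw intensity table these 10 of 30774 gene names stand as TGFB1, TGFB2, TGFB3, TGFBR1, TGFBR2, TGFBR3, LTBP1, LTBP2, LTBP3 and LTBP4. Every probe under these names was taken, whatever its signal, which gave 28 of the 45281 probes. A probe was tested when its detection value exceeded 0.99 on at least 3 of the 9 arrays. That left 17 of the 28 probes, from 9 genes, among 17712 tested probes of the whole array.

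The groups were Lgr5+ basal, Lgr5- basal and luminal cells, with 3 arrays each, on Illumina MouseWG-6 v2.0 BeadChips. All were sorted by flow cytometry from mammary glands of virgin C57BL/6 mice aged 10 weeks that carried Lgr5-GFP-IRES-CreERT2, an allele that places GFP and an inducible Cre recombinase under the Lgr5 promoter. The allele was thus shared by all 3 groups, and the luminal arrays bear the label wild-type in the field for Lgr5 expression. Each array carries the number of 1 of 3 pools, every pool gave 1 array to each group, and pools 1 and 2 were on 1 BeadChip and pool 3 on another. How many mice made up a pool and which markers the sort used is not stated in the labels, so p-values cover only the spread between these pools.

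TGF-beta is secreted in a latent form, in which the ligand is held by its own propeptide and tethered to the extracellular matrix by a latent TGF-beta binding protein. Once released, it is bound by the type II receptor, which recruits and phosphorylates the type I receptor, and Smad proteins carry the signal to the nucleus. In the mammary gland TGF-beta is best known as an inhibitor of ductal growth.

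Both basal populations had higher signal than luminal cells for the co-receptor Tgfbr3, the binder Ltbp4 and the type I receptor Tgfbr1, by 25 and 28.1-fold, 30.9 and 21.7-fold, and 5.88 and 5.06-fold in Lgr5+ and Lgr5- basal cells. The type II receptor Tgfbr2 and the 1 detected probe of Ltbp1 were lower in both basal populations than in luminal cells, by about 1.92 to 2.02-fold and 5.70 to 5.89-fold. The authors had set this Ltbp1 probe aside. The 3 ligands passed the test in none of the comparisons. Ltbp3 was higher in Lgr5+ basal than in luminal cells, by 1.82-fold. Between Lgr5+ and Lgr5- basal cells, 0 of the 17 probes passed in limma. An unadjusted p under 0.05 was found for 8 of the 17, a larger share than the 15.3% of all tested probes. Probes of 1 gene share their target, and by the brightest probe of each gene the count was 4 of 9. These differences are of normalized log2 intensities, background-corrected and quantile-normalized by the authors, tested with limma across all tested probes with Benjamini-Hochberg adjustment. Without background correction the same differences passed and were smaller, at 3.88 and 4.04 on the log2 scale for Tgfbr3 and 3.71 and 3.22 for Ltbp4. In sorted bulk samples, fewer cells of a type and less RNA per cell cannot be told apart.

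The labels were set against marker genes of each cell type. All 8 basal markers, among them Krt5, Krt14 and Acta2, were higher in both basal populations than in luminal cells, and all 8 tested luminal markers, among them Krt8 and Krt18, were lower. Lgr5 had values of 9.78, 9.83 and 10.65 in Lgr5+ basal arrays and 8.24, 8.14 and 8.94 in Lgr5- basal arrays, and it was detected on 0 luminal arrays. Luminal replicate 2 stood apart from the other luminal arrays in its basal markers, with Krt14 at 12.10 against 8.95 and 9.46, and Acta2 at 13.59 against 10.92 and 10.71. Lgr5+ basal replicate 2 had the highest endothelial marker signal of all arrays, a sum of 7031 linear units over 11 markers, against 2683 and 1531 on the other Lgr5+ basal arrays, 3096 to 4136 on Lgr5- basal arrays and 1436 to 2392 on luminal arrays. Against luminal cells, 4 of 9 tested endothelial markers were higher in each basal population, and 1 was lower in Lgr5- basal cells. Of 8 fibroblast markers, 7 (Lgr5+) and 6 (Lgr5-) were higher and 0 lower. Of all tested probes, 22.8% (Lgr5+) and 20.7% (Lgr5-) were higher than in luminal cells. The part of endothelial and fibroblast markers in the results was not tested. Of 12 haematopoietic markers on the array, 3 to 6 were detected on Lgr5+ basal arrays, 4 on each Lgr5- basal array and 1 to 2 on luminal arrays, and the defining marker Ptprc on 0 arrays. Of the 4 that were tested, 2 were higher in Lgr5+ and 1 in Lgr5- basal cells than in luminal cells, and 1 (Cd3e) was lower in Lgr5+ than in Lgr5- basal cells, and their part in the results was not tested. Of 5 tested pericyte markers, 2 were higher and 1 lower in each basal population than in luminal cells. The summed level of all 6 pericyte markers was highest on luminal arrays, at 760 to 959 linear units. It was 393 to 559 on Lgr5+ basal and 455 to 535 on Lgr5- basal arrays, and the part of these markers in the results was not tested. Mean raw intensity ran from 428.1 to 654.4 per array, and 33.6% to 38.5% of probes were detected.

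Of the 10 genes, 8 matched RefSeq promoter sequences, and Tgfb3 and Tgfbr3 did not. Shown here are windows of Ltbp4, Tgfbr1, Tgfbr2 and Ltbp1, which passed the test in both basal populations against luminal cells. Each holds 250 bases upstream of an annotated start, on build GRCm38.p6, 5′ to 3′ on the strand of the gene. Capitals mark GC boxes (the letters GGGCGG on either strand, overlaps included) for Ltbp4 and Tgfbr1, and the Smad-binding letters CAGAC on either strand for Tgfbr2 and Ltbp1. The first 3 sequences belong to genes higher in basal cells and the last 2 to genes higher in luminal cells.
Ltbp4 upstream start, chr7:27337613-27337862, minus strand: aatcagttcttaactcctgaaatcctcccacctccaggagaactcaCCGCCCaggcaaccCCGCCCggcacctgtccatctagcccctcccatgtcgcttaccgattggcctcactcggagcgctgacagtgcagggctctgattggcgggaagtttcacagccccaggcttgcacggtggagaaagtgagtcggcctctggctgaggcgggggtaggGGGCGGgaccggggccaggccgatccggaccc
Ltbp4 downstream start, chr7:27333649-27333898, minus strand: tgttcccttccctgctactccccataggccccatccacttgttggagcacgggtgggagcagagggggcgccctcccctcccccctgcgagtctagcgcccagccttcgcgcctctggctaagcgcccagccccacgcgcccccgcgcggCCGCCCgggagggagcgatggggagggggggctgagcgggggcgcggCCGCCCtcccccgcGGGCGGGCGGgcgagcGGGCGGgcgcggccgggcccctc
Tgfbr1, chr4:47352972-47353221, plus strand: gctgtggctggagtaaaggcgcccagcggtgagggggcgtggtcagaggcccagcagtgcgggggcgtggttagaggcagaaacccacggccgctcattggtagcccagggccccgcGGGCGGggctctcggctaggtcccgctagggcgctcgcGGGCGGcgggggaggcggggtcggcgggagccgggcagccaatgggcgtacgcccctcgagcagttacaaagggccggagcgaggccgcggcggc
Tgfbr2, chr9:116175364-116175613, minus strand: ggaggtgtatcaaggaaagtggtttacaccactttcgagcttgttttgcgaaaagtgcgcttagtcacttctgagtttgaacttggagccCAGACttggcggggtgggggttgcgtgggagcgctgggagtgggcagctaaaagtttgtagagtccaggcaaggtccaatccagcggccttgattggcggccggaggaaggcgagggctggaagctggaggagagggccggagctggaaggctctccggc
Ltbp1, chr17:75005279-75005528, plus strand: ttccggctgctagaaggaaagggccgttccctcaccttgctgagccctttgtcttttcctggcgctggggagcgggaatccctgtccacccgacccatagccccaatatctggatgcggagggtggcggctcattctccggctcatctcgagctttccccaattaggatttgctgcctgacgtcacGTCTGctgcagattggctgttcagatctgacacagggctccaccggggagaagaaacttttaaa
Of all windows in the table, the 3 of Ltbp4 held 3, 5 and 7 GC boxes (the last 2 overlap), the 2 of Tgfbr1 held 2 and 0, and the 1 of Ltbp3, also higher in Lgr5+ basal than in luminal cells, held 0. The 1 window of Tgfbr2 and both of Ltbp1 held 0 GC boxes. CAGAC stood 0 times in each Ltbp4 window, 0 and 1 times in those of Tgfbr1 and 1 time in that of Ltbp3. It stood 1 time in the window of Tgfbr2 and 1 and 2 times in those of Ltbp1. The GC box was present in 32.7% of the 32851 mouse promoter windows of this length and CAGAC in 42.2%. In the same order, these windows had 15, 29 and 28 CG dinucleotides for Ltbp4, 29 and 3 for Tgfbr1 and 2 for Ltbp3, against 12 for Tgfbr2 and 12 and 7 for Ltbp1, with a median of 6 over all promoters. None of these counts, of GC boxes, CAGAC or CG dinucleotides, separated the genes higher in basal cells from those higher in luminal cells. Tgfbr1, Ltbp1 and Ltbp4 have further annotated starts, and the arrays do not tell which start was in use. The AP-1 letters TGANTCA and the TEAD letters GGAATG, on either strand, were in none of the 12 windows of the 8 matched genes, and they were present in 6.75% and 12.6% of all promoters.

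**Figure D1:**
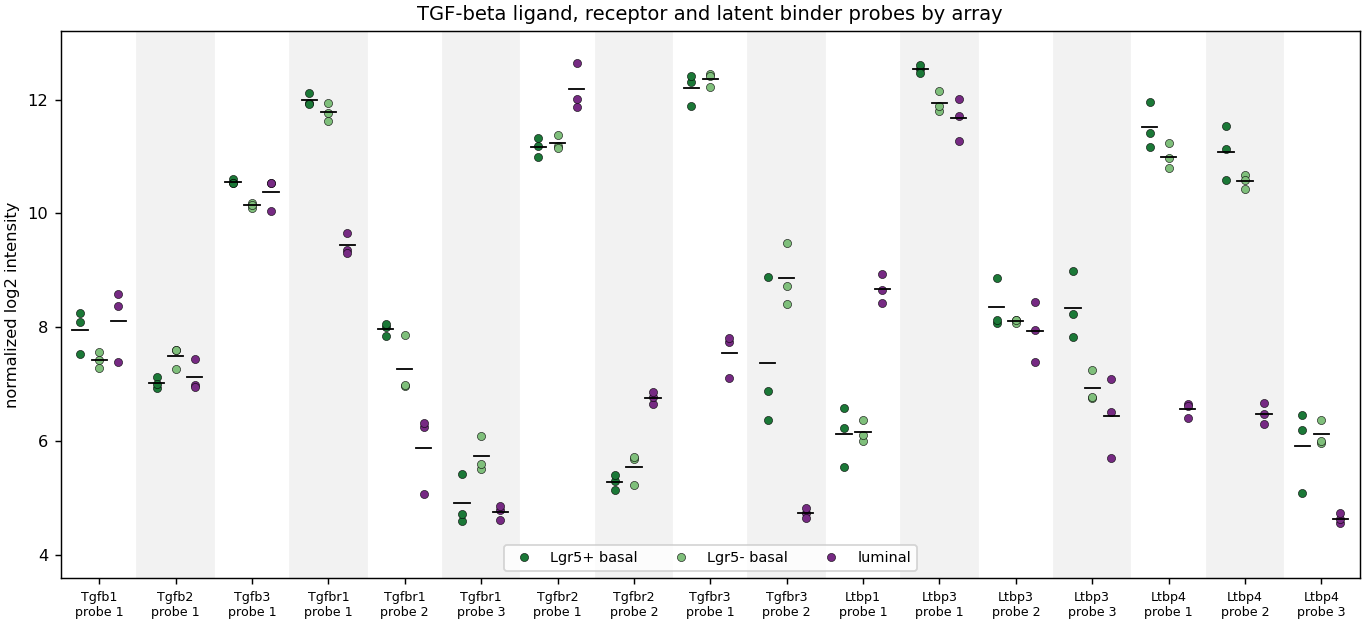
Normalized log2 intensity (vertical axis) of the 17 tested probes on each of the 9 arrays. Points are arrays, dark green for Lgr5+ basal, light green for Lgr5- basal and purple for luminal cells, and bars are group means. Probes of 1 gene are numbered by falling mean. Tgfbr3 probe 1 and Ltbp4 probes 1 and 2 lie far apart between basal and luminal arrays, Tgfbr2 and Ltbp1 lie highest on luminal arrays, and the ligand probes lie close together.

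The ligands were each represented by 1 probe, detected on all 9 arrays. Tgfb1 (ILMN_2711461), the isoform most widely expressed in the body, read 8.09, 8.26 and 7.53 in Lgr5+ basal arrays, 7.56, 7.42 and 7.28 in Lgr5- basal arrays and 8.59, 7.40 and 8.37 in luminal arrays. Luminal replicates 1 and 3 were the highest of all arrays, and luminal replicate 2 lay within the Lgr5- basal range. The part of its basal marker signal in this result was not tested. The Lgr5- basal minus luminal difference was -0.70 (95% interval -1.36 to -0.03) with an adjusted p of 0.0869 in limma. Without luminal replicate 2, the array with the higher basal markers, it was -1.06 with an adjusted p of 0.00575, while over all alternatives the adjusted p ran from 0.00575 to 0.305. Lgr5+ basal cells differed from luminal cells by -0.16 and from Lgr5- basal cells by 0.54, with adjusted p of 0.691 and 0.438. The highest Lgr5+ basal value, 8.26, was on replicate 2, the array with the most endothelial marker signal, whose part in the result was not tested.

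Tgfb2 (ILMN_1225196) read 7.13, 6.93 and 7.01 in Lgr5+ basal arrays, 7.26, 7.61 and 7.60 in Lgr5- basal arrays and 7.45, 6.98 and 6.95 in luminal arrays. All Lgr5+ basal values lay below all Lgr5- basal values, by 0.47 on average, and the adjusted p was 0.268. Tgfb3 (ILMN_2748966), the isoform known in the mouse gland for its rise at the start of involution, read 10.60, 10.53 and 10.54 in Lgr5+ basal arrays, 10.10, 10.18 and 10.15 in Lgr5- basal arrays and 10.54, 10.03 and 10.54 in luminal arrays. Here all Lgr5+ basal values lay above all Lgr5- basal values, by 0.41 (95% interval 0.03 to 0.80), with an adjusted p of 0.294. Against luminal cells the differences were -0.11 and 0.36 for Tgfb2 and 0.18 and -0.23 for Tgfb3, in Lgr5+ and Lgr5- basal cells, and none of these passed the threshold of 0.05.

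The receptors separated the basal from the luminal populations, and not all in 1 direction. Tgfbr1, the type I receptor kinase that phosphorylates Smad proteins, read 12.11, 11.94 and 11.93 with its brightest probe (ILMN_2602711) in Lgr5+ basal arrays, 11.76, 11.62 and 11.95 in Lgr5- basal arrays, and 9.66, 9.35 and 9.30 in luminal arrays. The basal and luminal values did not overlap. The difference from luminal cells was 2.56 (SE 0.171, adjusted p = 5.25e-07) in Lgr5+ and 2.34 (SE 0.171, adjusted p = 9.79e-07) in Lgr5- basal cells, by limma. Within pools 1, 2 and 3 it was 2.45, 2.59 and 2.63 for Lgr5+ and 2.10, 2.27 and 2.65 for Lgr5- basal cells, so it was as large on either BeadChip. Probe 2 (ILMN_2980532) gave 2.08 and 1.39 in the same direction and passed, and without background correction these were 0.95 and 0.56. Probe 3 (ILMN_2708965), detected on only 4 arrays, was at least 1.16-fold higher in Lgr5- basal than in luminal cells, where it was not detected (adjusted p = 0.00742, or a log2 difference of 0.26 without background correction), and did not pass for Lgr5+ basal cells (0.16, adjusted p = 0.62).

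Tgfbr2, the type II receptor that binds the ligand first, went the other way. Its brightest probe (ILMN_2760979) read 10.99, 11.18 and 11.32 in Lgr5+ basal arrays, 11.18, 11.15 and 11.38 in Lgr5- basal arrays and 12.02, 11.88 and 12.64 in luminal arrays. Every luminal value lay above every basal value. The differences were -1.01 (SE 0.213, adjusted p = 0.00251) for Lgr5+ and -0.94 (SE 0.213, adjusted p = 0.00429) for Lgr5- basal cells against luminal cells. With median centring in place of quantile normalization, the Lgr5- basal difference was -0.97 and its adjusted p 0.0521, beyond the threshold. A weaker probe (ILMN_1242086) read 5.29, 5.15 and 5.40 in Lgr5+ basal arrays and 5.69, 5.23 and 5.72 in Lgr5- basal arrays, against 6.65, 6.78 and 6.87 in luminal arrays. It passed in both comparisons at -1.48 and -1.22, and at -0.48 and -0.41 without background correction.

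Tgfbr3, or betaglycan, a membrane proteoglycan that presents ligand to the signalling receptors, had the widest gap of the receptors. Its brightest probe (ILMN_2789239) read 12.31, 11.88 and 12.41 in Lgr5+ basal arrays and 12.46, 12.22 and 12.42 in Lgr5- basal arrays, against 7.73, 7.82 and 7.10 in luminal arrays. The highest luminal value was thus more than 4 log2 units below the lowest basal value. The difference from luminal cells was 4.65 (SE 0.225, adjusted p = 7.33e-08) in Lgr5+ and 4.81 (SE 0.225, adjusted p = 6.08e-08) in Lgr5- basal cells. Without luminal replicate 2 it was 4.78 and 4.94. A second Tgfbr3 probe (ILMN_2606601), not detected on any luminal array, was at least 3.62-fold higher in Lgr5+ basal (adjusted p = 0.00181) and at least 10.2-fold higher in Lgr5- basal cells (adjusted p = 7.96e-05). Without background correction the differences of this probe were 1.02 and 1.92.

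**Figure D2:**
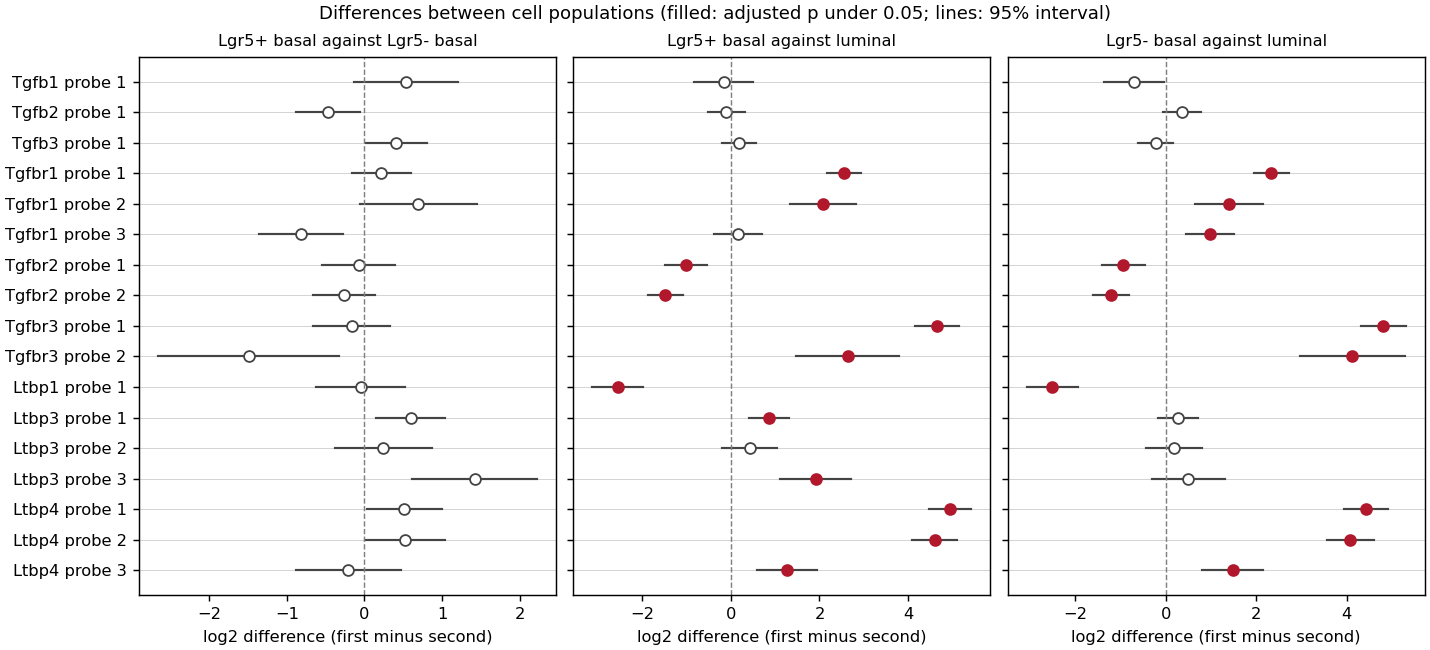
Differences in normalized log2 intensity (horizontal axes, first-named minus second group) for the 17 probes in the 3 comparisons. Lines are 95% intervals and filled points have an adjusted p under 0.05 in limma. The left panel, Lgr5+ against Lgr5- basal cells, has 0 filled points, and the panels against luminal cells have 12 and 11.

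Among the latent binding proteins, Ltbp4 was higher in basal than in luminal cells, and only 1 probe, an Ltbp1 probe that the authors set aside, was lower. Ltbp4, which tethers latent TGF-beta and also takes part in elastic fibre assembly, read 11.95, 11.42 and 11.17 with probe 1 (ILMN_2829262) in Lgr5+ basal arrays, 11.23, 10.98 and 10.79 in Lgr5- basal arrays, and 6.41, 6.65 and 6.63 in luminal arrays. No luminal value came near a basal one. The difference from luminal cells was 4.95 (SE 0.218, adjusted p = 4.66e-08) in Lgr5+ and 4.44 (SE 0.218, adjusted p = 7.80e-08) in Lgr5- basal cells. Within pools 1, 2 and 3 it was 5.54, 4.77 and 4.55 for Lgr5+ and 4.82, 4.32 and 4.17 for Lgr5- basal cells. Probe 2 (ILMN_2590034) gave 4.60 and 4.08. Probe 3, a dim one (ILMN_2708681), not detected on luminal arrays, was at least 1.31-fold and at least 1.51-fold higher in Lgr5+ and Lgr5- basal cells (adjusted p = 0.00555 and 0.00243), and its differences without background correction were 0.37 and 0.41.

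Ltbp1, the binder first described with platelet latent TGF-beta, had 7 probes, of which 6 were detected on 0 arrays. The remaining 1 (ILMN_1221564) read 5.54, 6.58 and 6.24 in Lgr5+ basal arrays, 6.01, 6.11 and 6.38 in Lgr5- basal arrays and 8.94, 8.43 and 8.66 in luminal arrays. Its luminal values lay above all basal ones, with differences of -2.56 (SE 0.259, adjusted p = 1.33e-05) and -2.51 (SE 0.259, adjusted p = 1.49e-05) for Lgr5+ and Lgr5- basal cells. Without background correction these were -1.38 and -1.37. The authors set this probe aside, which their file header ties to lack of expression or to poor probe annotation, so the result rests on 1 probe whose target was not checked here. Ltbp2, a relative that does not bind latent TGF-beta, had 2 probes, detected on 1 array and on 0 arrays, and was not tested.

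Ltbp3, which also binds latent TGF-beta, had its highest values on Lgr5+ basal arrays. Its brightest probe (ILMN_2776619) read 12.54, 12.46 and 12.61 in Lgr5+ basal arrays, 11.80, 11.89 and 12.14 in Lgr5- basal arrays and 11.71, 11.28 and 12.02 in luminal arrays. All Lgr5+ basal values lay above all others, and the Lgr5- basal and luminal values overlapped. Lgr5+ basal cells differed from luminal cells by 0.87 (SE 0.204, adjusted p = 0.00487), a call lost with median centring (0.86, adjusted p = 0.0629). Lgr5- basal cells differed from luminal cells by 0.27 (adjusted p = 0.316), and the Lgr5+ minus Lgr5- basal difference of 0.59 (95% interval 0.14 to 1.04) had an adjusted p of 0.199. Probe 3 (ILMN_1243018) gave 1.91 against luminal cells (adjusted p = 0.00136), or 1.03 without background correction, while probe 2 (ILMN_2608746) gave 0.43 (adjusted p = 0.237). Without luminal replicate 2, the array with the higher basal markers, probes 1, 2 and 3 gave smaller differences of 0.67, 0.16 and 1.55. Probes 1 and 3 still passed in limma (adjusted p = 0.0135 and 0.00569).

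Counted by probe, 12 of 17 (70.6%) passed between Lgr5+ basal and luminal cells, 9 higher and 3 lower, where 48% of all tested probes passed, 22.8% higher and 25.2% lower. The values of 12 probes did not overlap, against 54% of all tested probes. Between Lgr5- basal and luminal cells 11 of 17 (64.7%) passed, 8 higher and 3 lower, where 42.6% of all tested probes did, 20.7% higher and 21.8% lower. Here 11 did not overlap, against 53.9% of all tested probes. These shares count probes, not genes, and are given as a description only. The 17 probes come from 9 genes, and probes of 1 gene share their target. Of the 17, 3 (Tgfbr3 probe 2, Ltbp4 probe 3 and Tgfbr1 probe 3) were detected on 0 luminal arrays and so entered the test through basal arrays only. Where these 3 passed, they are among the probes counted as higher, so the higher shares by probe cannot be read against the background. By the brightest probe of each gene, Tgfbr1, Tgfbr3, Ltbp3 and Ltbp4 were higher in Lgr5+ basal than in luminal cells, Tgfbr2 and Ltbp1 lower, and the 3 ligands did not pass. That makes 44.4% of 9 genes higher and 22.2% lower. In Lgr5- basal cells 3 genes (33.3%) were higher, 2 (22.2%) lower and 4 not called. The lower shares by gene stand beside 25.2% and 21.8% of all tested probes. Among the 11 probes that were not tested, values ran from 4.29 to 5.60, and they are described only as not well above background.

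Between Lgr5+ and Lgr5- basal cells, 0.965% of all tested probes (171) passed, 0.474% higher and 0.491% lower, and 0 of the 17 member probes did. Values of the groups did not overlap for 5 of the 17 (Tgfb2, Tgfb3, Tgfbr1 probe 3, and Ltbp3 probes 1 and 3), where 21.6% of all tested probes did not overlap. The largest differences were in Tgfbr3 probe 2, at -1.49 (SE 0.527, adjusted p = 0.210), and Ltbp3 probe 3, at 1.42 (SE 0.365, adjusted p = 0.110). In Ltbp3 probe 3, Lgr5+ basal arrays read 8.98, 8.24 and 7.82 and Lgr5- basal arrays 6.75, 6.78 and 7.25, so that the pool differences were 2.23, 1.46 and 0.57. In Tgfbr3 probe 2, Lgr5+ basal arrays read 6.37, 6.89 and 8.88 and Lgr5- basal arrays 9.48, 8.41 and 8.74, with pool differences of -3.10, -1.52 and 0.15. Pool 3, the only one on its BeadChip, had the smallest difference in both.

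When Lgr5+ basal replicate 3 was left out, 3 probes passed, Ltbp3 probe 3 at 1.68 (adjusted p = 0.0281), Tgfbr3 probe 2 at -2.24 (adjusted p = 0.00817) and Tgfbr1 probe 3 at -1.08 (adjusted p = 0.0191), and the number of calls over all probes was then 1292. They also passed within the BeadChip of pools 1 and 2, at 1.84, -2.31 and -1.15. The brighter probes of Tgfbr3 and Tgfbr1 did not show these differences, at -0.16 (95% interval -0.66 to 0.33) and 0.22 (95% interval -0.16 to 0.59), and the brightest Ltbp3 probe, at 0.59, kept its sign in every pool (0.73, 0.58 and 0.47). Ltbp4 probe 1 was 0.52 higher in Lgr5+ basal cells (95% interval 0.03 to 1.00, adjusted p = 0.294), with pool differences of 0.72, 0.44 and 0.38. Tgfbr2 differed by -0.07 (95% interval -0.54 to 0.40).

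**Figure D3:**
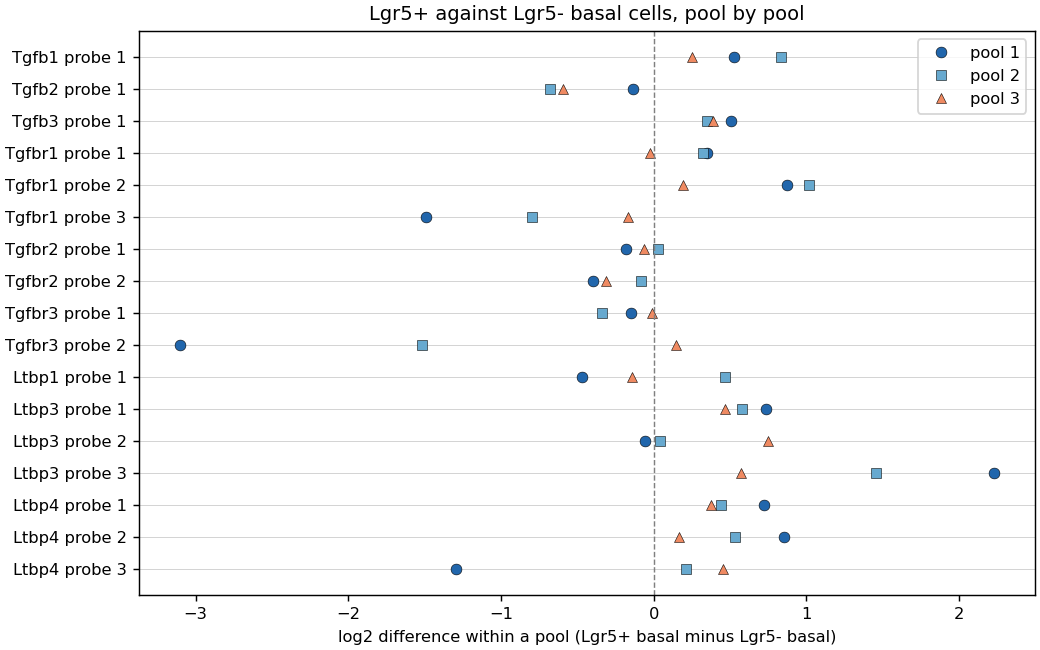
Lgr5+ minus Lgr5- basal difference in normalized log2 intensity (horizontal axis) of the 17 probes within each of the 3 pools. Circles are pool 1, squares pool 2 (both on 1 BeadChip) and triangles pool 3 (on the other). The difference of Tgfbr3 probe 2 ran from -3.10 in pool 1 to 0.15 in pool 3. Ltbp3 probe 1 and Tgfb3 were among several probes that stayed on 1 side of 0 in all pools.

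The other genes of the pathway were counted in 4 lists: signal transducers and inhibitors, activators of latent TGF-beta, matrix and accessory binders, and target genes. Each gene was counted by its tested probe with the highest mean, whereas the shares of all tested probes include dimmer and repeated probes. The 2 are thus not counted in like units, and the lists were chosen with earlier results of these data known. Some listed genes, among them Tgif2, Fmod and Cd109, were detected on 0 luminal arrays and entered the test through basal arrays only. The higher shares of the lists are thus a description only and cannot be read against those of all tested probes. Against luminal cells, 8 of 19 tested transducers and inhibitors were higher and 2 lower in Lgr5+ basal cells, and 7 were higher and 2 lower in Lgr5- basal cells. The shares called, 52.6% and 47.4%, stand beside 48% and 42.6% of all tested probes. The 2 lower in Lgr5+ basal cells became 0 without Lgr5+ basal replicate 2, and 1 without Lgr5+ basal replicate 1, Lgr5- basal replicates 2 or 3, or luminal replicates 1 or 3. The 2 lower in Lgr5- basal cells became 1 without Lgr5- basal replicates 2 or 3. Tgfb1i1 (Hic-5), a focal adhesion adaptor that is induced by TGF-beta, differed by 5.41 and 5.69. Pmepa1, which restrains Smad signalling, differed by 2.27 and 1.73, and Dab2, an endocytic adaptor that binds TGF-beta receptors, by 2.13 and 2.00. Tgif2, a Smad corepressor that was not detected on luminal arrays, was at least 3.49-fold and at least 3.21-fold higher, with differences of 0.86 and 0.79 without background correction.

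Of 14 tested activators of latent TGF-beta, 6 were higher in each basal population, and 2 in Lgr5+ and 3 in Lgr5- basal cells were lower. That makes 57.1% and 64.3% called, where 48% and 42.6% of all tested probes were. The gelatinase Mmp2 was higher by 6.43 and 6.00, and the protease gene Adamts1 by 3.84 and 3.40 (2.36 in Lgr5+ basal cells without background correction). Adamts1 was detected on 2 of 3 luminal arrays. The urokinase gene Plau differed, with detection on 1 of 3 luminal arrays, by 4.32 and 4.65, or 2.57 and 2.86 without background correction. The transglutaminase gene Tgm2 was lower, at -2.22 and -2.24, and so was Itgb6, a subunit of an integrin that releases active ligand, at -1.24 and -1.33. Of 12 tested matrix and accessory binders, 7 were higher and 1 lower in Lgr5+ basal cells, and 6 and 1 in Lgr5- basal cells. That makes 66.7% and 58.3% called, beside the same 48% and 42.6% of all tested probes. The 1 lower in Lgr5- basal cells became 2 without luminal replicate 2 or without Lgr5+ basal replicate 3. The fibrillin gene Fbn1, whose product carries the latent complexes in microfibrils, differed by 4.51 and 4.28, and the elastin gene Eln by 5.57 and 5.64. Without background correction these were 2.98 and 2.77 for Fbn1 and 3.73 and 3.80 for Eln. Eln was detected on 2 of 3 luminal arrays. Fmod, for the proteoglycan fibromodulin, was not detected on luminal arrays and was at least 10.4-fold and at least 17.9-fold higher, with uncorrected differences of 1.95 and 2.59.

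Of 27 tested target genes, 20 were higher and 3 lower in Lgr5+ basal cells than in luminal cells (median difference 1.16, against -0.05 over all tested probes), and 14 were higher and 2 lower in Lgr5- basal cells (median 0.86, against -0.04). The higher shares were 74.1% and 51.9%, where 22.8% and 20.7% of all tested probes were higher, and the lower shares 11.1% and 7.41%, where 25.2% and 21.8% were lower. The 3 lower in Lgr5+ basal cells became 1 without Lgr5+ basal replicate 2. Timp3, a protease inhibitor, differed by 4.47 and 4.35, and Pdgfb, a growth factor, by 2.91 and 3.06. Tagln, an actin-binding protein of contractile cells, differed by 6.04 and 6.25 and Snai2, a transcription factor of basal cells, by 5.69 and 6.05, and both were detected on 1 of 3 luminal arrays. Without background correction Tagln differed by 4.03 and 4.23 and Snai2 by 3.46 and 3.80. All 8 basal markers moved the same way as these genes, with a summed level of 80957 to 93849 linear units on Lgr5+ basal, 92020 to 98214 on Lgr5- basal and 3117 to 19302 on luminal arrays, and their part in the counts was not tested.

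Between Lgr5+ and Lgr5- basal cells, 0 of 19 transducers and inhibitors, 0 of 14 activators and 0 of 27 target genes passed in limma. Of all tested probes 0.965% passed, so lists of this size could hold 0 without differing from the whole array. An unadjusted p under 0.05 was found for 3, 3 and 6 of these genes, where 15.3% of all tested probes had one. Without Lgr5+ basal replicate 3, 3 target genes were higher and 1 lower, and 1 activator was lower. Both genes that passed are matrix and accessory binders, which makes 2 of 12 tested (16.7%), and 3 of the 12 had an unadjusted p under 0.05. Cd109, a membrane protein that binds TGF-beta and restrains its receptors, read 7.07, 6.91 and 7.11 in Lgr5+ basal arrays and 5.0, 5.70 and 5.84 in Lgr5- basal arrays, a difference of 1.52 (SE 0.217, adjusted p = 0.0104). The values did not overlap, and the gene was detected on 3 Lgr5+ and 2 Lgr5- basal arrays and on 0 luminal arrays. The call was lost with median centring (1.44, adjusted p = 0.0989) and without Lgr5+ basal replicate 1 (1.5, adjusted p = 0.0504), and without background correction the difference was 0.54. The proteoglycan decorin (Dcn), which binds TGF-beta in the matrix, read 11.80, 11.87 and 11.66 in Lgr5+ basal arrays and 13.29, 13.18 and 13.27 in Lgr5- basal arrays. Its difference of -1.47 (SE 0.173, adjusted p = 0.00413) passed in all 20 alternatives. Dcn is also 1 of the 8 fibroblast markers, and 0 of the other 7 passed between the basal groups, where 0.965% of all tested probes did. The summed level of those 7 was 786 to 872 linear units on Lgr5+ basal, 788 to 824 on Lgr5- basal and 361 to 412 on luminal arrays. The ranges of the basal groups overlapped, and the part of fibroblast markers in the Dcn difference was not tested.

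**Figure D4:**
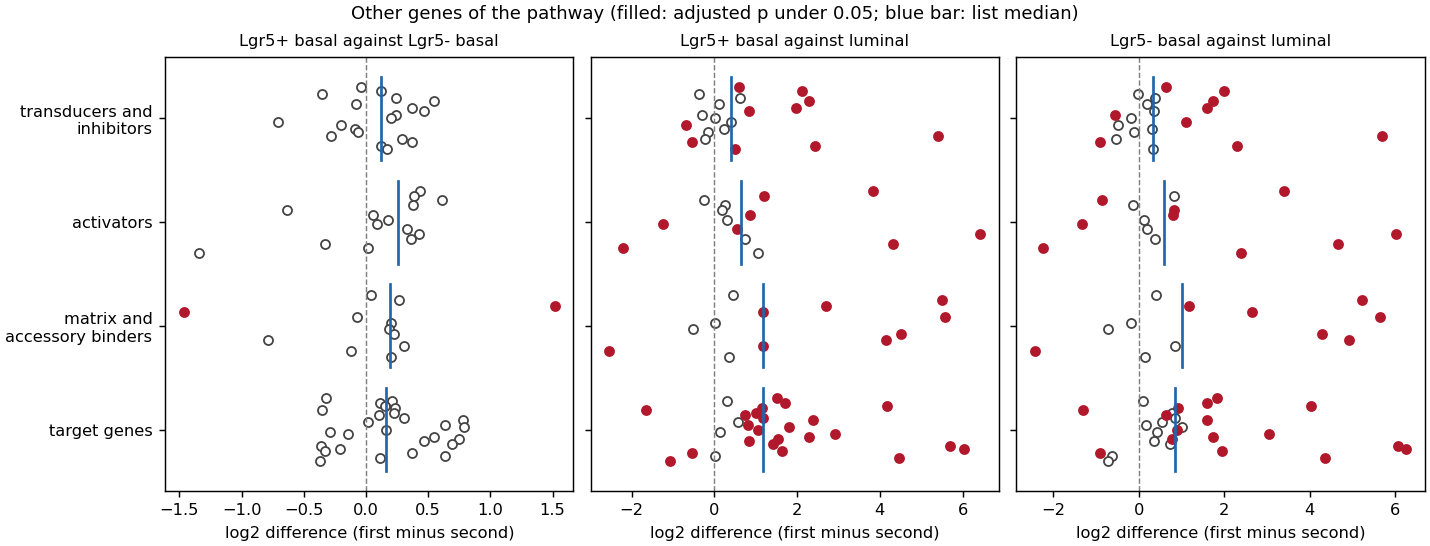
Differences in normalized log2 intensity (horizontal axes, first-named minus second group) for the other pathway genes in 4 lists, 1 point per gene. Filled points have an adjusted p under 0.05 in limma, and blue bars are list medians. In the left panel, Lgr5+ against Lgr5- basal cells, the filled points are Dcn and Cd109, and against luminal cells 20 and 14 of 27 target genes were higher.

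The probes most alike to each separated member over the 9 arrays were described by Pearson's r among 11986 probes with a range of at least 1 log2 unit. The arrays fall into 3 groups, so r is given only as a description of these 9 arrays. Tgfbr3 was most like Flna (0.998), Pdlim3 (0.998) and Ift81 (0.998), and Tgfbr1 most like Fgfrl1 (0.999) and Timp3 (0.997). Ltbp4 was most like the probe the table names ODZ2 (0.999) and Tshz2 (0.998). On the luminal side, Tgfbr2 was most like Traf3ip2 (0.987), Gclc (0.986) and Dapp1 (0.986), and Ltbp1 most like Csn3 (0.992), Rgs3 (0.992) and Ccnd1 (0.992). Of these members Ltbp3 had the lowest values, 0.958 with Tusc1 and 0.957 with Map1b.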

How the data were processed

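Arrays of 9 samples, 3 per group, were analysed. The deposited raw table gives the linear intensity of each probe before any normalization. Its detection columns hold a fraction that, per the file headers, is a detection p-value, but the deposited fraction rises with intensity and was read as 1 minus p. A further deposited column holds a flag for probes the authors set aside. The second deposited table holds log2 values of the authors, and GenomeStudio and limma are named in the submitters' processing notes. Repeating normexp background correction (offset 16) and quantile normalization on the raw intensities gave log2 values within 0.028 of the deposited ones.

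Probes above 0.99 on at least 3 arrays were tested with limma 3.58.1 in R 4.3.3, in 1 model of all 9 arrays. The model had 6 residual degrees of freedom plus 4.67 from the prior. Tests were two-sided, p-values were adjusted by Benjamini and Hochberg's method over 17712 probes, and the threshold was 0.05. The model was checked on simulated data. Values are means of 3 arrays, and the number of arrays limits the precision. Where a probe was detected on no array of the lower group, that group was raised to the lowest detected signal of each array and the fold is written as at least N-fold. Different probes of a gene are reported singly, and the probe with the highest mean stands for a gene in gene counts. All member probes are described. Of each pathway list, up to 4 genes with the smallest p in a comparison are named; the 3 most alike probes of each separated member are given in part. The members and lists were chosen with earlier results of these data known. Pool numbers mark a shared pool per the labels. After group means were removed, arrays of the same pool correlated at 0.083 to 0.403 and arrays of different pools at -0.294 to 0.042. Alternatives were other scalings, filters, pool and BeadChip terms, fewer groups and leaving out each array. Promoter sequences are from RefSeq, and Tgfb3 and Tgfbr3 had no entry in the table used.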

Additional observations from a re-analysis of the deposited data

How the results depend on the processing

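Of 443 values of the 23 called differences of the 17 probes under the alternatives, 441 stayed past the threshold in the same direction. The other 2 came with median centring in place of quantile normalization, for Ltbp3 probe 1 (Lgr5+ basal against luminal) and Tgfbr2 probe 1 (Lgr5- basal against luminal), at 0.86 and -0.97. Of 544 values of the 28 differences that were not called, 522 stayed so in the same direction, 7 passed and 15 changed sign. With the pool as a replicate block, no call among the 17 probes changed (0 between the basal groups, 9 higher and 3 lower in Lgr5+ and 8 higher and 3 lower in Lgr5- basal cells against luminal cells), and 183 probes passed between the basal groups.

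The count over all probes between Lgr5+ and Lgr5- basal cells, 171, depended most on the setting: 55 with median centring, 92 with only those groups fitted and 917 within the BeadChip of pools 1 and 2. Leaving out 1 array gave 48 (without Lgr5- basal replicate 1) to 1292 (without Lgr5+ basal replicate 3). It was 56 without Lgr5+ basal replicate 1, 65 without its replicate 2, and 63 and 107 without Lgr5- basal replicates 2 and 3. Between Lgr5- basal and luminal cells it was 4967 with median centring, against 7538. For the 17 probes between the basal groups, 1 was higher and 2 lower within that BeadChip, and 0 to 1 and 0 to 2 when 1 array was left out. With 1 probe per gene, 4 and 3 members were higher in Lgr5+ and Lgr5- basal cells than in luminal cells, since fewer probes were counted. The cause of the other shifts was not tested.

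All sign changes were in differences that did not pass. Within the first BeadChip, Ltbp1 became 0.00013 and Ltbp3 probe 2 -0.0072 between the basal groups, and Tgfb1 0.18 and Tgfbr1 probe 3 -0.17 between Lgr5+ basal and luminal cells. When 1 array was left out, the Lgr5+ minus Lgr5- basal difference ran from -0.15 to 0.014 for Tgfbr2 probe 1, -0.28 to 0.24 for Ltbp1, -0.48 to 0.20 for Ltbp4 probe 3 and -0.014 to 0.39 for Ltbp3 probe 2. The Lgr5+ basal minus luminal difference ran from -0.52 to 0.075 for Tgfb1, -0.19 to 0.055 for Tgfb2 and -0.10 to 0.32 for Tgfbr1 probe 3. The Lgr5- basal minus luminal difference ran from -0.088 to 0.44 for Ltbp3 probe 2. Without background correction the differences of probes near background were smaller, and the 11 member probes that were not tested were not well above background.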
